A study of Mus musculus with 6 samples.

Results

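Cholesterol and fatty acids are built from acetyl-CoA, and 28 mouse genes that encode the enzymes of these routes or their regulators were followed in the pregnant uterus between day 15.5 and day 18.5 after mating. The genes were listed by symbol, and their probes were those that the array's own annotation files under these symbols. Of the 28 genes, 25 had at least 1 probe, 40 probes in all. After a filter that kept probes detected on at least 3 of the 6 arrays, 23 of the 25 genes were measured, out of 14081 genes tested on the whole array. Mvk, mevalonate kinase, was detected on 1 array and Idi1, an isopentenyl diphosphate isomerase, on none. Hmgcs1, Fdft1 and Acaca had no probe under these symbols and were not analysed here.

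Total RNA of mouse uterus was hybridised to Illumina bead arrays, 3 arrays for each of the 2 days. Day 15.5 lies in the quiescent stretch of mouse pregnancy and day 18.5 close to term, and the study asked how the uterus passes from quiescence to contractility. The tissue label reads uterus while the design text names myometrium, the muscle layer, and the sources used here give no strain, genotype or treatment. How many animals 1 array stands for is not stated, and p-values therefore reflect only the variation among these 6 arrays, possibly technical.

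All 6 arrays lay on 1 chip, on which each day took a stretch of its own, so the effect of the day and that of the place on the chip cannot be told apart. Between 43.6% and 46.5% of probes were detected per array, with median unnormalized signals of 75.8 to 105, and the number of arrays limits the precision. Smooth muscle markers were measured for 9 of 9 genes, among them Acta2 at a log2 signal of 14.72 ± 0.08 on day 15.5 and 14.79 ± 0.12 on day 18.5 (SD, n = 3). Of the 9, Smtn (1.43-fold), Myocd (5.22-fold) and Lmod1 (1.3-fold) were lower on day 18.5, 33.3% against 13.4% of all genes called lower. The call of Lmod1 was lost with each of the 6 arrays left out (0.0518 to 0.101). All 8 measured epithelium markers were higher on day 18.5, against 12.7% of all genes called higher. Of 6 measured trophoblast and yolk sac markers, 4 were higher and 1, Rbp4, was lower. Of the 4, Prl7b1, Apoa1 and Afp passed the detection filter through the late arrays alone, so this count was partly set by the filter. Tpbpa, Ctsq and Ttr of that list did not pass it. Values are given after the gene results.

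In the mevalonate route, acetyl-CoA units are joined and reduced to mevalonate, which is turned into farnesyl diphosphate, squalene, lanosterol and, through a series of demethylations and double-bond changes, cholesterol. Fatty acid synthesis starts from cytosolic acetyl-CoA released from citrate, and elongases and desaturases shape the chains afterwards. Both routes are under SREBP transcription factors, which INSIG proteins hold in the endoplasmic reticulum when sterols are plentiful. In the uterus, cholesterol is a component of the muscle cell membrane, and fatty acids supply the precursors of prostaglandins.

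The 23 measured genes did not move as one block between the days. In limma's moderated test, with Benjamini-Hochberg adjustment over all genes and a threshold of 0.05, Scd2, Elovl6, Dhcr7 and Fdps fell and Mvd rose, each by less than 2-fold, while 18 of the 23 measured genes did not pass. That is 21.7% of the measured genes, against 26.1% of all genes tested. Called lower were 4 genes, against 13.4% of all genes, and called higher 1, against 12.7% of all genes. The median log2 change, day 18.5 minus day 15.5, was -0.01 over the 23 genes and 0.02 over all genes, and the median size of the change was 0.24 in both. Changes were positive in 11 genes and negative in 12. In these bulk samples fewer cells of a type and less RNA per cell cannot be told apart.

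**Figure D1:**
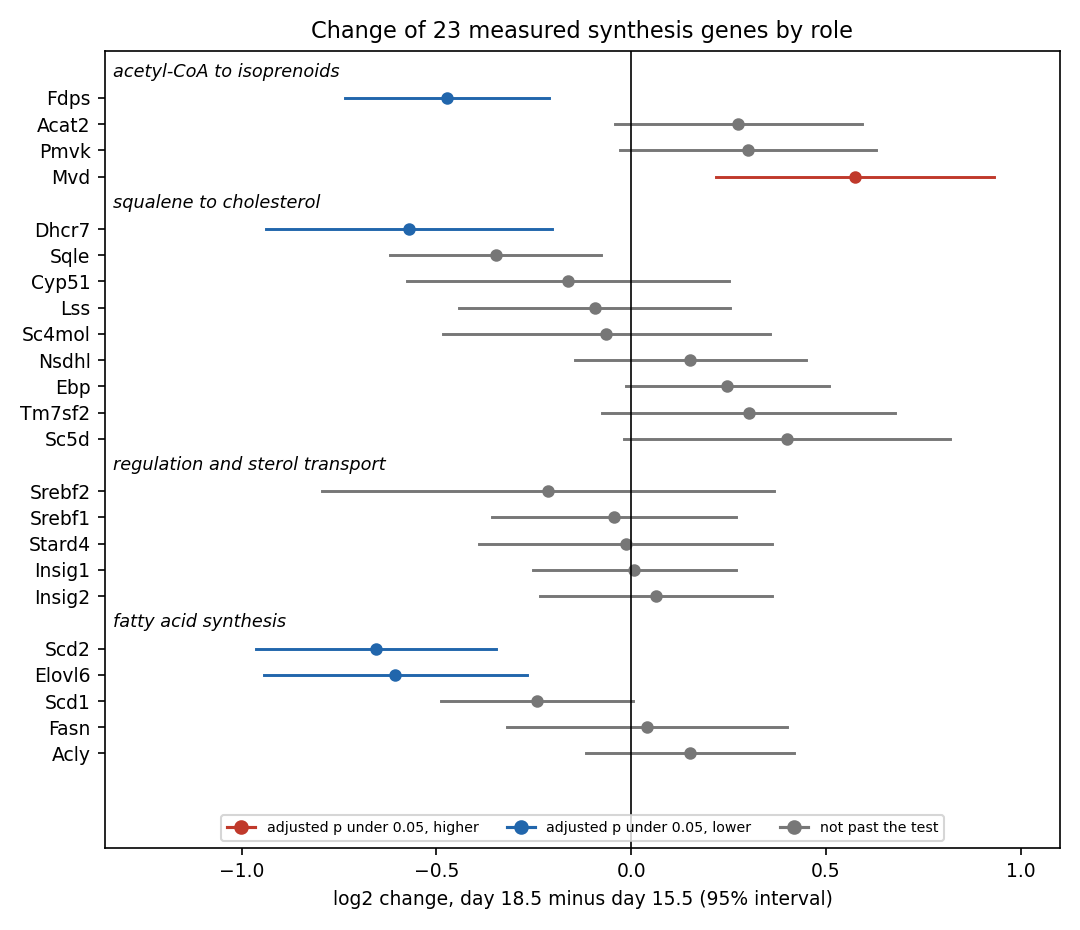
Log2 change from day 15.5 to day 18.5 (x axis) of the 23 measured genes, grouped by role, with 95% intervals from limma (3 arrays a day). The 4 genes that fell (blue) and Mvd, which rose (red), stand beside 18 genes that did not pass the test, whose intervals lie between -0.79 and 0.82.

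The first segment, from acetyl-CoA to the isoprenoids, held a fall and a rise side by side. Fdps, farnesyl diphosphate synthase, makes the last intermediate that sterols share with ubiquinone, dolichol and prenylated proteins. Its log2 signals were 11.51, 11.52 and 11.66 on the day 15.5 arrays and 11.04, 11.02 and 11.21 on the day 18.5 arrays. The days did not overlap, and the change was -0.47 ± 0.12 (SE), 1.39-fold lower (adjusted p = 0.0156). Without day 15.5 replicate 3 the adjusted p was 0.0578, without day 18.5 replicate 1 it was 0.0576, and without day 18.5 replicate 2 it was 0.0712. Over all alternatives it ranged from 0.00389 to 0.0712, with a change between -0.53 and -0.41.

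Mvd, mevalonate diphosphate decarboxylase, which forms isopentenyl diphosphate, read 7.06, 6.82 and 6.51 on day 15.5 and 7.40, 7.23 and 7.50 on day 18.5. Every late array was above every early one, at a change of 0.57 ± 0.16, 1.49-fold higher (adjusted p = 0.0261). Mvd was the only gene of the 23 called higher. Its call was lost when day 15.5 replicate 2 (0.0636), day 15.5 replicate 3 (0.0823), day 18.5 replicate 1 (0.0689) or day 18.5 replicate 3 (0.08) was left out, in each case at a change of 0.43 to 0.58. Over all alternatives its adjusted p ranged from 0.0121 to 0.0823.

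Acat2, the cytosolic acetyl-CoA acetyltransferase that starts the route, changed by 0.28 ± 0.14 (adjusted p = 0.186). Its day 18.5 values of 8.90, 8.90 and 8.85 were close together, and 1 of its day 15.5 values, 8.89 in replicate 1, stood among them while the other two were both 8.47. Without that array the change was 0.42 and the adjusted p 0.0356, and over all alternatives the adjusted p ranged from 0.0356 to 0.411. For Pmvk, phosphomevalonate kinase, the change was 0.30 ± 0.14 (adjusted p = 0.163), with overlapping days. Of the 4 genes measured in this segment, 1 was called higher, 1 was called lower and 2 did not pass. Of all genes, 12.7% were called higher and 13.4% lower.

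The second segment runs from squalene to cholesterol, and 1 of its 9 measured genes passed the test, 11.1% against 26.1% of all genes. Dhcr7, 7-dehydrocholesterol reductase, carries out the last step to cholesterol, and its substrate is also the precursor of vitamin D. Its log2 signals were 6.33, 6.73 and 6.56 on day 15.5 and 5.68, 6.09 and 6.14 on day 18.5, so the days did not overlap. It fell by 0.57 ± 0.16 on the log2 scale, or 1.48-fold (adjusted p = 0.0304). The adjusted p was 0.0988 without day 15.5 replicate 2, 0.0816 without day 15.5 replicate 3 and 0.0947 without day 18.5 replicate 1, and it ranged from 0.0185 to 0.0988 over all alternatives.

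Sqle, squalene epoxidase, an oxygen-dependent and rate-controlling step, came next to the threshold. Its day 15.5 values of 10.93, 10.97 and 10.94 were all above its day 18.5 values of 10.53, 10.49 and 10.77. The change of -0.35 ± 0.12 had an adjusted p of 0.0622, which ranged from 0.029 to 0.217 over the alternatives and was 0.034 without day 18.5 replicate 3, at a change of -0.43. Sc5d, lathosterol oxidase, which acts just before Dhcr7, had the opposite sign, with 6.18, 6.32 and 5.88 on day 15.5 and 6.34, 6.33 and 6.90 on day 18.5. Its days did not overlap either, by a margin that rests on 6.32 against 6.33, and the change of 0.40 ± 0.19 did not pass (adjusted p = 0.148).

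The other 6 genes of the segment did not pass, at changes of -0.16 to 0.30. Tm7sf2, a sterol C14 reductase, changed by 0.30 ± 0.17 (adjusted p = 0.22) and was detected on 2 of 3 arrays of day 15.5. Ebp, the sterol isomerase, read 10.84, 10.65 and 10.61 on day 15.5 and 10.99, 10.93 and 10.91 on day 18.5, a change of 0.25 ± 0.12 (adjusted p = 0.151). Both had days that did not overlap. Nsdhl, which removes the C4 carboxyl group, changed by 0.15 ± 0.13. For Lss, lanosterol synthase, the change was -0.09 ± 0.15, and for Sc4mol, the C4 methyl oxidase now named Msmo1, -0.06 ± 0.19; both turned positive without day 15.5 replicate 2, at 0.04 and 0.10.

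Cyp51, lanosterol 14-alpha demethylase, showed how far 1 array could stand apart. Its day 18.5 values were 8.65, 8.71 and 9.31, and replicate 3 was above all of its day 15.5 values of 9.18, 8.90 and 9.07. The change was -0.16 ± 0.18 (adjusted p = 0.559). Day 18.5 replicate 3 was the highest of its day for 12 of the 23 genes, against 39.8% of all genes. On day 15.5, replicate 2 was the highest of its day for 13 of the 23 genes, against 31.5% of all genes. Day 15.5 replicate 3 was the highest of its day for 1 of the 23 and the lowest for 11, against 32.2% and 29% of all genes.

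**Figure D2:**
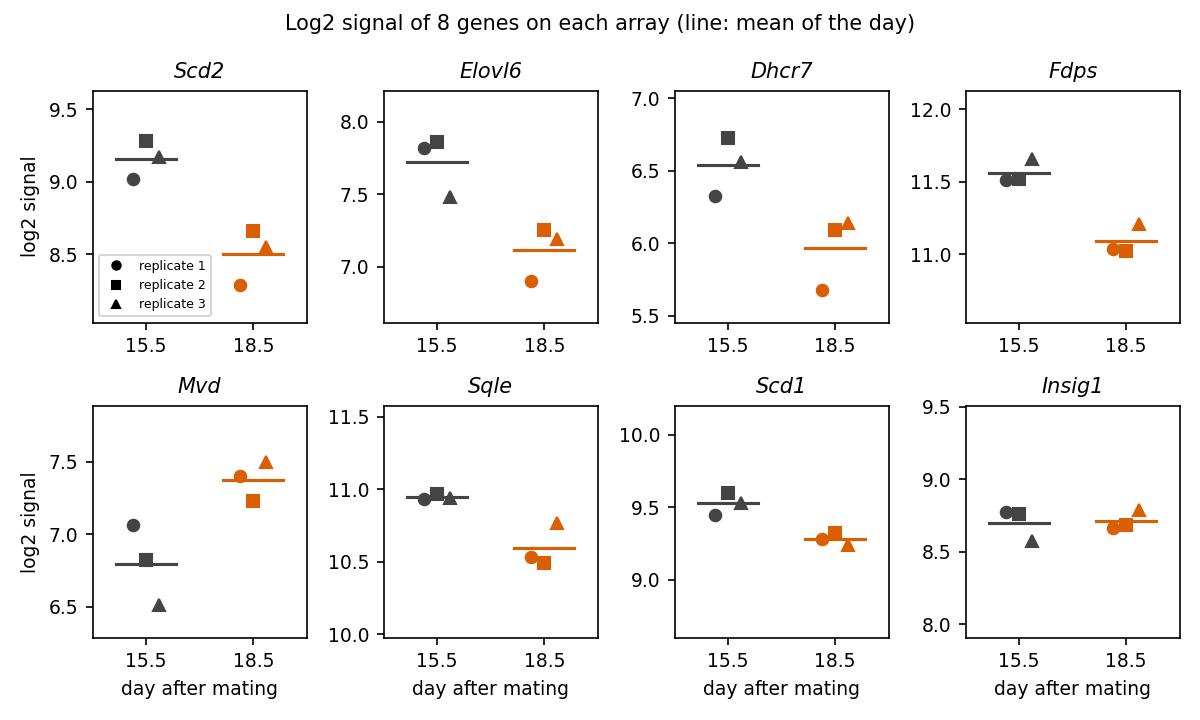
Log2 signal (y axis, normexp-corrected and quantile-normalized) of 8 genes on each of the 6 arrays by day after mating, with the mean of each day as a line and the replicate as the marker shape. In Scd2, Elovl6, Dhcr7, Fdps, Sqle and Scd1 every day 18.5 array lies below every day 15.5 array, in Mvd every one lies above, and Insig1 overlaps.

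Fatty acid genes showed the 2 largest falls among the 23, both at steps after the chain is made. Scd2, a stearoyl-CoA desaturase that places the double bond of oleate and palmitoleate, read 9.02, 9.28 and 9.17 on day 15.5 and 8.29, 8.66 and 8.55 on day 18.5. The days were well apart, and the fall of 0.66 ± 0.14 on the log2 scale, 1.58-fold, had an adjusted p of 0.00714. Its call held in all 16 alternatives, with an adjusted p of at most 0.0285. Elovl6, the elongase that takes palmitate to stearate, the substrate of the desaturases, read 7.82, 7.86 and 7.48 on day 15.5 and 6.90, 7.25 and 7.19 on day 18.5.

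The fall of Elovl6 was 0.61 ± 0.15, or 1.52-fold (adjusted p = 0.0163), again without overlap. The adjusted p was 0.0575 without day 15.5 replicate 2 and 0.0604 without day 18.5 replicate 1, and ranged from 0.0109 to 0.0604 over all alternatives. Scd1, the second desaturase, had values of 9.45, 9.60 and 9.53 on day 15.5 and 9.28, 9.32 and 9.24 on day 18.5. These did not overlap, and the change of -0.24 ± 0.11 did not pass (adjusted p = 0.138). The log2 difference Scd1 minus Scd2 was 0.43, 0.32 and 0.36 on day 15.5 and 0.99, 0.66 and 0.69 on day 18.5. It was larger on all 3 late arrays, by 0.41 (two-sided exact permutation test, p = 0.1, which is the smallest that 3 arrays against 3 allow; 0.3 after adjustment over 3 pairs).

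The enzymes that make the chain itself did not pass. Acly, ATP citrate lyase, which supplies cytosolic acetyl-CoA to both routes, changed by 0.15 ± 0.12 (adjusted p = 0.394), with a 95% interval of -0.12 to 0.42. Fasn, fatty acid synthase, was near the detection limit, with 1 array of day 15.5 and 2 arrays of day 18.5 detected, and changed by 0.04 ± 0.16 (interval -0.32 to 0.40); without day 15.5 replicate 3 the change was -0.06. Of the 5 measured fatty acid genes, 2 fell, against 13.4% of all genes called lower, and 3 did not pass. At an unadjusted p under 0.05 in limma's test the count was also 2, and the share of all genes at that threshold is not given here.

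In the authors' deposited table, the false discovery rate was 0.0237 for Scd2, 0.0358 for both Elovl6 and Dhcr7, and 0.0542 for both Fdps and Mvd. The ratios of day 18.5 over day 15.5 in the authors' deposited table were 0.624 for Scd2, 0.628 for Elovl6 and 0.604 for Dhcr7, and 0.719 for Fdps and 1.58 for Mvd. By the threshold of 0.05 used here, Fdps and Mvd thus lay on the other side there. In limma's test on the authors' normalized values both passed, at an adjusted p of 0.022 for Fdps and 0.0362 for Mvd.

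None of the regulators passed by its brightest probe, where 26.1% of all genes passed. None of the 5 genes of regulation and sterol transport had an unadjusted p under 0.05 in limma's test. Srebf1, whose product favours fatty acid genes, read 6.62, 6.70 and 6.53 on day 15.5 and 6.62, 6.77 and 6.33 on day 18.5, a change of -0.04 ± 0.14 with a 95% interval of -0.36 to 0.27. Without day 18.5 replicate 3 the change was 0.08. Srebf2, whose product favours sterol genes, had the widest spread within days of all 23 genes, a pooled SD of 0.43. Its values were 8.56, 7.54 and 8.36 on day 15.5 and 7.81, 7.76 and 8.25 on day 18.5, so that day 15.5 replicate 2 was below every other array. The change was -0.21 ± 0.26, and its interval of -0.79 to 0.37 leaves a difference of either sign.

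Insig1 and Insig2, the anchors that retain the SREBP complex, changed by 0.01 ± 0.12 and 0.06 ± 0.13. Their 95% intervals ran from -0.25 to 0.27 and from -0.23 to 0.36. The sign of Insig1 turned to -0.06 without day 15.5 replicate 3 and to -0.03 without day 18.5 replicate 3, and that of Insig2 to -0.02 without day 15.5 replicate 1 and to -0.01 without day 18.5 replicate 2. Stard4, a carrier that moves sterol between membranes, changed by -0.01 ± 0.17 (interval -0.39 to 0.36), and by 0.02 under median scaling. Its day 15.5 replicate 1 stood at 10.17 and the other two at 9.64 and 9.59; without replicate 1 the change was 0.17, and without day 18.5 replicate 2 it was 0.04. The difference Insig1 minus Insig2 changed by -0.06 (exact permutation p = 0.7) and Srebf1 minus Srebf2 by 0.17 (exact permutation p = 0.9), each 0.9 after adjustment over the 3 pairs.

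Over all roles, 10 of the 23 genes had days that did not overlap, 43.5%, against 43.2% of all genes tested. Lower on every late array were Scd2, Elovl6, Dhcr7, Fdps, Sqle and Scd1, and higher on every late array were Mvd, Sc5d, Tm7sf2 and Ebp. In 15 of the 23 genes the size of the change was under 0.3 on the log2 scale. The standard errors had a median of 0.14, as over all genes.

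More than 1 probe was kept for 6 genes, and for Insig1 the probes disagreed. Its brightest kept probe gave 0.01 and a second one -0.04, while the third read 8.25, 8.08 and 8.32 on day 15.5 and 7.88, 7.70 and 7.84 on day 18.5. That probe fell by 0.41 ± 0.12, with an adjusted p of 0.0395 over all kept probes, and its days did not overlap. Averaging the 3 probes gave a change of -0.15 (adjusted p = 0.384). The array annotation alone does not say which transcript each probe reads.

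The second kept probe of Fdps, with 6.81, 6.13 and 7.00 on day 15.5 and 6.31, 6.28 and 6.34 on day 18.5, had overlapping days and a change of -0.34 ± 0.21 (adjusted p over probes = 0.269). Averaging the 2 probes gave Fdps a change of -0.41 and an adjusted p of 0.0657. For Sqle the second probe gave -0.40 ± 0.18 (0.138), close to the first. The second probe of Srebf2 gave -0.31 ± 0.15 (0.174), and that of Insig2 gave 0.20 ± 0.12 (0.254) with days that did not overlap. The 4 probes of Nsdhl gave changes from -0.10 to 0.20, with overlapping days in each. The 8 probes that were not kept included 1 each of Elovl6, Insig1, Insig2, Lss, Sqle and Srebf1 that was detected on no array, beside the probes of Mvk and Idi1. A probe named A530025K05Rik in the array annotation, a RefSeq synonym of Acaca, was detected on no array.

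**Figure D3:**
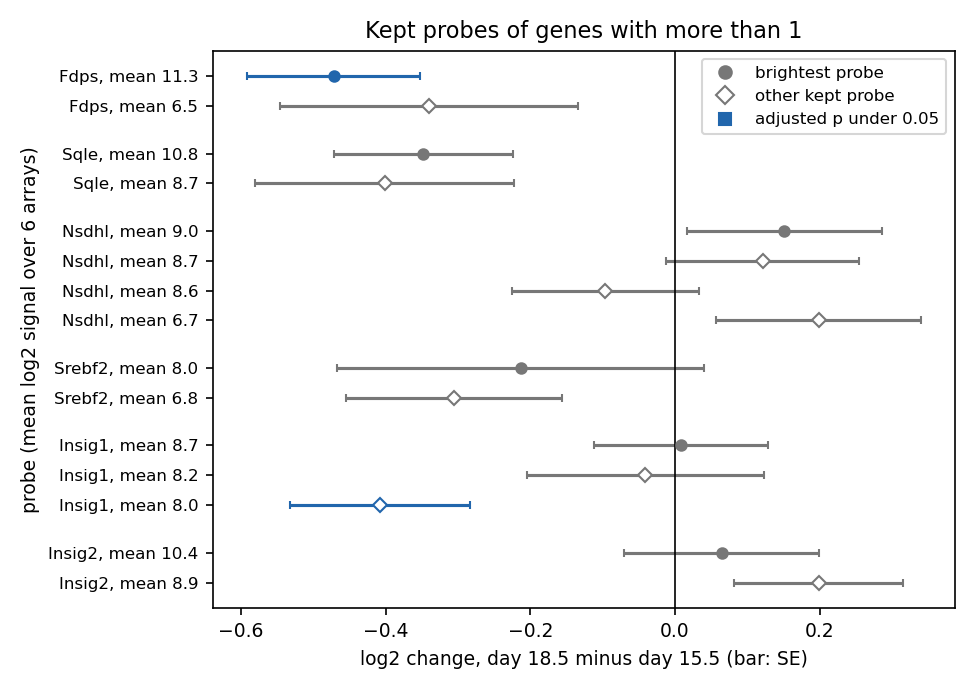
Log2 change from day 15.5 to day 18.5 (x axis, bars are SE from limma, 3 arrays a day) of every kept probe of the 6 genes with more than 1, labelled with the probe's mean log2 signal over the 6 arrays. The 2 probes of Fdps and of Sqle lie on the same side of 0, whereas 1 of the 3 Insig1 probes fell by 0.41 and the other two lie near 0.

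SREBPs bind sterol regulatory elements in the promoters of these genes beside the general factors NF-Y, which reads the CCAAT box, and Sp1. From RefSeq's table for GRCm38.p6, 29 start sites of 22 of the 28 genes were used. Any start sites of the 28 genes on 1 chromosome were left out, whereas the windows of all genes kept that chromosome. The 250 bases before each start were searched on both strands, with overlaps between motifs allowed. The CCAAT box was in 19 of the 29 windows, 65.5%, against 33.8% of 32851 windows of all genes, and the Sp1 core GGGCGG in 72.4% against 32.7%. A strict form of the sterol regulatory element, TCACNCCAC, was in 1 window of the 29, that of Hmgcs1, which was not measured here, and in 1.05% of all windows. Mvd, which rose, and Dhcr7 and Elovl6, which fell, are shown, since they were called and have a window in the table; capitals mark the CCAAT box in either direction, and each window is read on the gene's strand and ends at the base before the start. Mvd lies at chr8:122443423-122443672 on the minus strand, Dhcr7, 1 of whose 3 starts is shown, at chr7:143829964-143830213 on the plus strand, and Elovl6 at chr3:129532136-129532385 on the plus strand.
Mvd: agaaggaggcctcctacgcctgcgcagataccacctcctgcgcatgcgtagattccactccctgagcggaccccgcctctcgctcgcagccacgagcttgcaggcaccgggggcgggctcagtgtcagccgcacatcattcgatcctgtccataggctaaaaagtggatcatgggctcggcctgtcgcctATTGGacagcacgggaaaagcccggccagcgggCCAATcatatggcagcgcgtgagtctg
Dhcr7: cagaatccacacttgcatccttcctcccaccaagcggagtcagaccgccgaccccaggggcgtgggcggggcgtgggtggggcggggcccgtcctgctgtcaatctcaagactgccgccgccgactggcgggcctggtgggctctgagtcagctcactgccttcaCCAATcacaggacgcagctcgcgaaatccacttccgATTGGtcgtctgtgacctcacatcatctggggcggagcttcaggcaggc
Elovl6: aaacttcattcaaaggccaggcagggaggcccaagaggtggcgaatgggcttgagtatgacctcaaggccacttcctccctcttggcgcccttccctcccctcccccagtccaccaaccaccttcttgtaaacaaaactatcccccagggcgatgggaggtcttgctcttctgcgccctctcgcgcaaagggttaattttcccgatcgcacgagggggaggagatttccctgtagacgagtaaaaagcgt

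The windows shown of Mvd and Dhcr7 each held 2 CCAAT boxes, 1 in each direction. The windows of the other starts of Dhcr7 held 0. That of Elovl6 held neither the CCAAT box nor the Sp1 core. A match is a stretch of letters and not a measured binding site.

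Among 10 other measured genes of cholesterol synthesis and its isoprenoid branches, 2 rose and 2 fell, 40% of the list against 26.1% of all genes. Hsd17b7, which takes part in the removal of the C4 methyl groups and also reduces estrone, went from 9.26 ± 0.15 to 9.96 ± 0.09 (SD, n = 3), 1.62-fold higher (adjusted p = 0.00316). Dhdds, a dolichol synthase subunit, rose by 0.47 (adjusted p = 0.0134), and Pdss1, which makes the ubiquinone side chain, fell by 0.47 (adjusted p = 0.0236). The call of Pdss1 was lost without day 15.5 replicate 2 (0.0672), day 18.5 replicate 1 (0.081) or day 18.5 replicate 3 (0.0645).

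Genes of sterol uptake and transport within the cell were called in 1 direction. Of 13 measured, 6 fell, 46.2% against 13.4% of all genes called lower, and 7 did not pass. The list was chosen with earlier results of these data known, so this share is a description and not a test. At an unadjusted p under 0.05 limma gave 8 lower and 0 higher, and the share of all genes at that threshold is not given here. Lrp1, a receptor for apolipoprotein E particles, fell by 0.94 (adjusted p = 0.00779) and Stard3, a sterol carrier of late endosomes, by 0.47 (adjusted p = 0.028). The call of Stard3 was lost without day 15.5 replicate 2 (0.0749) and without each of the day 18.5 arrays (0.0584 to 0.0805). Scarb1, the HDL receptor, and Osbp, an oxysterol-binding protein, both named after their values were seen, also lost their calls without each day 18.5 array (0.0703 to 0.0857 and 0.0625 to 0.0907), and Osbp without day 15.5 replicate 2 (0.0525) or 3 (0.109). Scarb1 passed in 4 of 12 alternatives and Osbp in 10 of 16. Scarb1, counted among the 6, was detected on no late array and passed the filter through the early arrays alone. Its fall is therefore a bound, at least 1.31-fold. The median change of the 13 genes was -0.43.

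Of 9 genes of SREBP processing, Erlin1, a membrane protein that restrains SREBP release, fell by 0.60 ± 0.13 (adjusted p = 0.00882), and 8 did not pass. That is 11.1% of the list called, against 26.1% of all genes. Scap, the sterol sensor that escorts SREBP, changed by 0.01 and the proteases Mbtps1 and Mbtps2 by -0.33 and 0.22; these 3 were chosen after their values were seen. Of 10 genes of sterol efflux, oxysterols and esters, 1 rose and 1 fell, 20% against 26.1% of all genes. Ch25h, which makes 25-hydroxycholesterol, an inhibitor of SREBP processing, went from 9.94 ± 0.31 to 7.43 ± 0.42, 5.69-fold lower (adjusted p = 7.62e-05). Cyp7b1, which hydroxylates that oxysterol further, went from 8.06 ± 0.09 to 8.55 ± 0.11, 1.41-fold higher (adjusted p = 0.0135), and its call was lost without day 18.5 replicate 1 (0.0523) or 2 (0.0625).

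Among 22 other measured genes of fatty acid synthesis, elongation, desaturation and activation, 5 rose and 2 fell, 31.8% of the list against 26.1% of all genes. Acsl3, an acyl-CoA synthetase found on lipid droplets, went from 8.90 ± 0.11 to 10.80 ± 0.15, 3.72-fold higher (adjusted p = 1.54e-05). Elovl5, an elongase of polyunsaturated chains, went from 12.52 ± 0.06 to 13.17 ± 0.13, 1.57-fold higher (adjusted p = 0.00369), opposite in sign to Elovl6. Fads3, a desaturase of the front-end family, fell by 1.29 (adjusted p = 0.000532). Thrsp, a lipogenic nuclear protein, rose by 0.97 (adjusted p = 0.00497) and was detected on 1 of 3 early arrays. Of the other calls on the list, named after their values were seen, Fads2 and Mecr were lost without day 18.5 replicate 2 (0.0691 and 0.0546), Mecr without day 18.5 replicate 3 (0.0539), and Acsl5 without day 18.5 replicate 1 (0.0574).

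**Figure D4:**
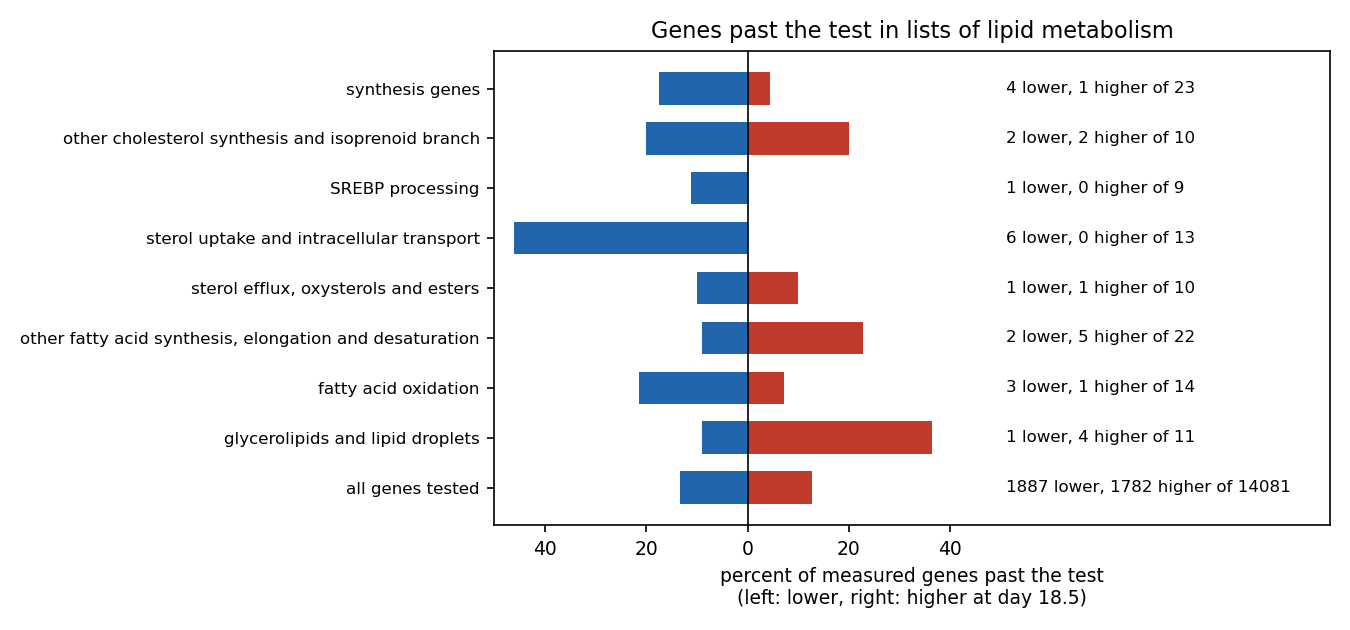
Percent of the measured genes of each list that passed limma's test at an adjusted p under 0.05, lower on day 18.5 to the left in blue and higher to the right in red, with the counts beside the bars. The synthesis genes in the first row, with 4 lower and 1 higher of 23, can be set against all 14081 genes, of which 1887 were lower and 1782 higher, in the last row, and the uptake list has 6 lower and 0 higher of 13.

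Markers of other cells moved between the days as well, and their part in these results was not tested. The summed linear signal of the 8 epithelium markers was 13482 to 20871 on day 15.5 and 38267 to 44693 on day 18.5, with Krt8 at 12.48 ± 0.30 and 13.60 ± 0.10 on the log2 scale (SD, n = 3). The call of Krt18 held in 8 of 16 alternatives and was lost without day 15.5 replicate 2 or 3 or any 1 day 18.5 array (0.0864 to 0.13). The summed signal of the 6 measured trophoblast and yolk sac markers was 826 to 864 and then 8332 to 14178. On day 15.5 the brightest of them was Rbp4, at a mean log2 signal of 9.30, against 4.66 to 5.89 for the others. Prl7b1 was at least 95.4-fold, Apoa1 at least 29.3-fold and Afp at least 6.43-fold higher on day 18.5. These 3 were detected on no early array and passed the filter through the late arrays alone, so their rises are bounds. Of the same 6 markers, Prl2c2 also rose, and Rbp4, a retinol carrier, fell 2.49-fold (adjusted p = 0.000761). Such a bound sets the late mean against the lowest detected signal of the early arrays. Endothelium markers fell in 3 of 6 genes, namely Cdh5, Emcn and Pecam1, against 13.4% of all genes called lower. Their sums were 9590 to 12230 and then 7001 to 7597. The call of Pecam1 held in 8 of 16 alternatives and failed when replicate 2 or 3 was omitted on day 15.5 (0.104 and 0.118) or on day 18.5 (0.116 and 0.0936).

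Fibroblast markers fell in 2 of 6 genes, Col1a1 and Col1a2, against 13.4% of all genes called lower. Their sums were 60340 to 65836 and then 48820 to 55459. Of 6 macrophage markers, Cd14 rose and Mrc1 fell, 33.3% against 26.1% of all genes, with sums of 16160 to 19372 and 20397 to 20693. The sums of the 9 smooth muscle markers overlapped, at 107993 to 121269 and 111226 to 119483. Of 8 adipocyte markers 2 were measured, Adipoq and Cfd, and neither passed (adjusted p = 0.29 and 0.205), with sums of 503 to 686 and 136 to 680; 6 of the 8, among them Plin1, Fabp4 and Lep, did not pass the detection filter. The sum over the 23 synthesis genes was 18517 to 19448 on day 15.5 and 17579 to 18885 on day 18.5.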

How the data were processed

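Per the file headers, the authors deposited mean bead signal intensities and detection p-values of 45281 probes on 6 Illumina arrays, unnormalized, and a table of their own normalized intensities with the fold ratio between the days and its false discovery rate. The sources used here do not name the software behind the deposited intensities. In the authors' table the block of ratios is sorted apart from the probes, and its 43887 ratios were placed on probes by symbol and by the ratio of geometric means. Unnormalized intensities were corrected with normexp using the detection p-values, offset by 16, quantile-normalized and log2-transformed (neqc, limma 3.58.1, R 4.3.3). Probes with detection p under 0.05 on at least 3 arrays were kept, and the brightest kept probe stood for its gene. Other genes were named through RefSeq accession (26889 probes), symbol (5429) or synonym (3945), with 9018 probes keeping the file's name.

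The 2 days were compared with lmFit and eBayes over all 6 arrays, which was tested on simulated data. Replicate numbers did not pair the arrays (correlations of same-numbered deviations of -0.16, 0.15 and -0.06). Beads per array numbered 24 to 61 for the probes that stood for the 23 measured genes. The genes and lists were chosen with earlier results of these data known. Named genes are all 28 and, of each other list, up to 4 called genes by smallest adjusted p; some of these are not reported here, though the counts include them. Alternatives covered background correction, offset, scaling, filter, probe summary, names, variance model, the authors' values, a block and each array left out. A probe's signal is not a level that compares between genes.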

Additional observations from a re-analysis of the deposited data

How the results depend on the processing

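Of the 5 called genes, Scd2 passed in 16 of 16 alternatives, Elovl6 in 14 of 16, Fdps in 12 of 16, and Dhcr7 in 11 of 15 and Mvd in 11 of 16, each with the same sign throughout. With no detection filter 0 of the 28 genes were called higher (Mvd at 0.0542) and Dhcr7 had an adjusted p of 0.0642. Sqle passed with no background correction (0.031), an offset of 50 (0.0387), a strict filter (0.047) or a trended and robust variance (0.029). Leaving out 1 array in turn gave 0 to 2 of the genes called higher and 1 to 5 called lower, 1108 to 1693 of all genes called higher, and 10 to 19 genes of the other lipid lists, markers aside, called lower; fewer arrays enter these fits. By the same omissions, changes that were near 0 turned sign, with ranges of -0.21 to 0.04 for Lss, -0.27 to 0.10 for Sc4mol, -0.14 to 0.08 for Srebf1, -0.06 to 0.04 for Insig1, -0.02 to 0.14 for Insig2, -0.12 to 0.17 for Stard4 and -0.06 to 0.14 for Fasn. The differences Insig1 minus Insig2 and Srebf1 minus Srebf2 ranged from -0.17 to 0.06 and from -0.03 to 0.52. Insig1 changed by -0.15 with the mean of its probes, and Stard4 by 0.02 under median scaling; beyond what is stated, the cause was not tested. With the replicate block, 1551 genes were higher and 1666 lower, and 1 and 4 of the 28 genes, the same counts as without it. Median scaling moved the median of all genes from 0.02 to 0.06. Probes near background, such as that of Fasn, limit what can be said of their genes.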

Other observations

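Of 11 measured genes that store and release triglyceride, 4 were called higher on day 18.5, against 12.7% of all genes, 1 lower, and 6 did not pass. The 4 include Lipe, which passed the detection filter through the late arrays alone. Dgat2, which adds the last acyl chain to triglyceride, went from 9.14 ± 0.42 to 11.68 ± 0.29 on the log2 scale (SD, n = 3), 5.82-fold higher (limma, adjusted p = 6.21e-05). Plin2, a coat protein of lipid droplets, went from 9.18 ± 0.18 to 10.63 ± 0.32, 2.74-fold higher (adjusted p = 0.000387), and Lpl, which releases fatty acids from lipoproteins, from 13.17 ± 0.08 to 14.15 ± 0.10, 1.98-fold higher (adjusted p = 0.00032). Mgll, monoglyceride lipase, fell from 11.74 ± 0.27 to 10.50 ± 0.24, 2.35-fold (adjusted p = 0.000924). The calls of Dgat2, Plin2, Lpl and Mgll held in every alternative in which the gene was tested. Lipe, hormone-sensitive lipase, was detected on no early array and rose at least 2.43-fold (adjusted p = 0.000296). No rise was seen under the gene names of the file, at a change of -0.20 (adjusted p = 0.598). The same held without day 18.5 replicate 2, at -0.08 (0.875), or replicate 3, at -0.00 (0.993). Lipe had 4 probes on the array, and the brightest kept probe, which stood for the gene, could differ between settings.

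Of 14 measured genes of fatty acid oxidation, 1 rose and 3 fell, 28.6% against 26.1% of all genes. Slc25a20, the carnitine carrier of the mitochondrial membrane, rose 1.68-fold (adjusted p = 0.00393). Eci1, an enoyl-CoA isomerase, fell by 0.57 (adjusted p = 0.0101), and Acaa2, the mitochondrial thiolase, also fell by 0.57 (adjusted p = 0.0126). Cpt2, the inner carnitine palmitoyltransferase, fell by 0.35 (adjusted p = 0.0456). The call of Cpt2 was kept in 8 of 16 alternatives, with an adjusted p of up to 0.144, and was lost without day 15.5 replicate 2 (0.0965), day 15.5 replicate 3 (0.127), and each day 18.5 array (0.12, 0.144 and 0.0731).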
